A study of Mus musculus with 70 samples.

Results

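The first growth of RENCA cells in a kidney was examined by comparing the parental line (P0) with the first kidney passage (KPT P1, kidney primary tumour). RENCA is a transplantable renal adenocarcinoma line from the BALB/c mouse. The comparison holds every array of the earlier array set whose label names either passage, namely 2 P0 arrays and 5 KPT P1 arrays out of 70 in the series. P0 is the GFP-expressing line kept in culture. KPT P1 was obtained by injecting 100000 of these cells below the capsule of the left kidney of female, wild-type BALB/c mice aged 6 weeks, digesting the tumour, and growing the explant in culture, a step that the study's methods describe as a way to rid it of host cells. All groups carry the GFP vector. The extraction protocol in the labels names a tissue homogeniser and calls KPT P1 a primary tumour, whereas the study's methods describe RNA from cell lines and state that explants were kept until host cells lacking GFP were no longer seen by microscopy or flow cytometry. A purity for each RNA sample is not given in the sources used here. Nothing states that the 2 P0 samples came from separate cultures. The p-values of the main fit pool the spread within groups over 24 arrays (P0 and KPT P1 to P6), most of them KPT. They therefore may not measure the spread between parental cultures. The comparison asks which transcripts differed after a single growth in kidney and how markers of host cells moved with them.

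A tumour explant starts as a mixture of cancer cells with the fibroblasts, contractile myofibroblasts, macrophages and vessels of the host. Fibroblasts are known for secreting collagens and decorin, myofibroblasts for smooth muscle actin, and macrophages for lysosomal proteases, Fc receptor adaptors and CC chemokines. Injured or inflamed tissue also switches on acute-phase genes, of which many are driven by IL-6 family cytokines through STAT3, and low oxygen raises genes of glucose uptake and glycolysis through the HIF factors. In a bulk RNA sample, fewer cells of a type and less RNA per cell cannot be told apart.

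Levels are given as log2 of the processed array signal, where 0 is the 75th percentile of the 11290 probes detected on all 70 arrays. A difference of 1 on this scale is a 2-fold difference. The scanner software found 29.8% and 28.0% of probes above background in P0 and from 27.6% to 41.6% in KPT P1. The epithelial keratin Krt18 lay at 4.05 and 4.18 in P0, but the epithelial adhesion genes Cdh1 and Epcam were not above background on either P0 array. No probe used here reads GFP.

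The 5 KPT P1 samples were not alike. Replicates 1 and 2 held less of the leukocyte, fibroblast and smooth muscle markers than replicates 3, 4 and 5. The summed linear level of 16 pan-leukocyte markers was 0.391 and 0.420 in P0, 0.512 and 0.489 in replicates 1 and 2, and 1.28, 1.66 and 1.31 in replicates 3, 4 and 5. For 18 fibroblast and pericyte markers the sums were 0.780 and 0.730 in P0 and 1.23, 1.32, 3.16, 14.9 and 10.9 in replicates 1 to 5. Counts below are therefore also given with replicates 1 and 2 left out and with replicates 3, 4 and 5 left out, both chosen after seeing the data. An index of RNA quality or labelling also moved. It is the median level of long mRNAs minus that of ribosomal protein mRNAs, and it was -5.94 and -5.96 in P0 against -4.77, -4.61, -5.46, -5.11 and -4.42 in KPT P1. The difference of 1.08 had p = 0.0952 in a 2-sided exact permutation test, the smallest value that 2 against 5 samples allow. Its part in the results was not tested beyond a fit with the index as a covariate.

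The limma fit called 1026 of 19704 tested probes at an adjusted p of 0.01 or less, which is 5.21% (3.88% higher and 1.33% lower in KPT P1). An unadjusted p under 0.05 was found for 5759 probes (29.2%). Of the 1026 called probes, 764 were higher and 262 lower, so 74.5% of the calls were higher. The direction split depends on the scaling. It was 47.4% higher with the percentile taken over all probes, 58.2% with another background correction and quantile normalization, 61.6% with quantile normalization and 59.3% with the deposited series values, and these scalings moved the median change of all probes from 0.07 to -0.18, -0.05, -0.05 and -0.06. With replicates 1 and 2 of KPT P1 left out, 1516 probes were called, and with replicates 3, 4 and 5 left out, 290. Leaving out P0 replicate 1 gave 198 calls, leaving out P0 replicate 2 gave 160, and leaving out KPT P1 replicate 4 gave 660. The RNA index as a covariate gave 427.

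With 1 probe per gene, 689 of 11243 gene symbols were called (6.13%), 523 of them higher (4.65%) and 166 lower (1.48%). The median change was 1.52 for the rises and -0.98 for the falls on the log2 scale. For the same genes it was 1.27 and -1.23 with the percentile over all probes and 1.13 and -0.99 with the deposited series values. Of the 523 rises, 186 came from genes not above background in either P0 sample, so their fitted size rests on dim P0 signals. Where such genes are set to the smallest fold that the background allows, the median rise is 1.16. All 689 genes had 5 KPT P1 samples on 1 side of both P0 samples, against 37.1% of all tested genes, and among all tested probes 20.8% had every KPT P1 sample above both P0 samples and 14.5% below.

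All called genes lacked overlap between the groups, so for each rise every KPT P1 sample lay above both P0 samples. For the 186 rises from genes not above background in P0, this compares KPT P1 with signals near background. With a floor on dim probes, 648 of the 689 genes kept their direction and 255 of the 523 rises were still called. The rises were larger in replicates 3, 4 and 5. The median rise of the 523 genes over the mean of P0 was 1.20, 1.33, 1.54, 1.71 and 1.71 in replicates 1 to 5. In replicate 1, the sample with the smallest rise, 272 of the 523 genes stood more than 2-fold above the higher P0 sample, and in replicate 4, 405 did. With replicates 3, 4 and 5 left out, only 130 of the 523 rises and 26 of the 166 falls were still called. Because the groups did not overlap, the direction of these genes could not change in such a subset. With replicates 1 and 2 left out, 466 rises and 131 falls were still called.

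Ccl6, a CC chemokine of myeloid cells, had levels of -8.21 and -7.54 in P0 and -1.32, -1.25, 2.16, 2.73 and 2.00 in KPT P1 replicates 1 to 5. It was not above background in P0 and was above background in all 5 KPT P1 samples, and the groups did not overlap. Its rise was at least 113-fold (fitted change 8.74 ± 2.03 SE, limma adjusted p = 0.00753). A bound of this kind compares the KPT P1 mean with the lowest signal that passed background on each P0 array.

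Ctss, the lysosomal protease cathepsin S, lay at -8.41 and -7.76 in P0 and at -2.86, -2.95, 0.18, 1.13 and 0.47 in KPT P1. Ctss rose at least 35.4-fold (adjusted p = 0.00344), and replicates 1 and 2 again lay below the other 3 samples. Lcp1, the leukocyte actin-bundling protein L-plastin, lay at -7.19 and -7.85 in P0 and at -3.32, -2.79, -1.87, -0.91 and -1.61 in KPT P1. It rose at least 14.5-fold with the smallest adjusted p among the 12 largest rises (3.94e-07). Slc11a1, a metal transporter of phagosomes, rose at least 6.29-fold and Rac2, a GTPase of blood cells, at least 3.99-fold. In both genes, replicates 1 and 2 were the lowest KPT P1 samples and lay above P0.

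Acta2, smooth muscle actin, lay at -6.29 and -7.59 in P0 and at -2.33, -2.58, 0.05, 2.24 and 2.00 in KPT P1. The groups did not overlap, and the rise was at least 56.9-fold (adjusted p = 0.00243). Myl9, a myosin light chain of smooth muscle, rose at least 33.6-fold, Ltbp2, a matrix protein of elastic fibres, at least 19.2-fold, and Lrrc32, a cell-surface anchor of latent TGF-beta, at least 20.4-fold. Dcn, the collagen-binding proteoglycan decorin, lay at -7.17 and -7.49 in P0 and at -3.53, -2.99, -1.54, -0.55 and -0.23 in KPT P1, a rise of at least 18.2-fold. Of these 5 genes, only Dcn was still called with replicates 3, 4 and 5 left out.

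Anxa8, an annexin of epithelia and other cells, lay at -4.89 and -6.78 in P0, where 1 of 2 arrays was above background, and at -0.45, -0.56, 3.11, 3.21 and 2.93 in KPT P1. Its change of 7.48 ± 0.98 (SE, adjusted p = 9.53e-05) was still called with either set of replicates left out. Bcl2l15, of the Bcl-2 family, rose at least 17.0-fold and Anpep, the membrane peptidase aminopeptidase N, at least 8.06-fold. Both lost their calls with replicates 3, 4 and 5 left out.

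**Figure D1:**
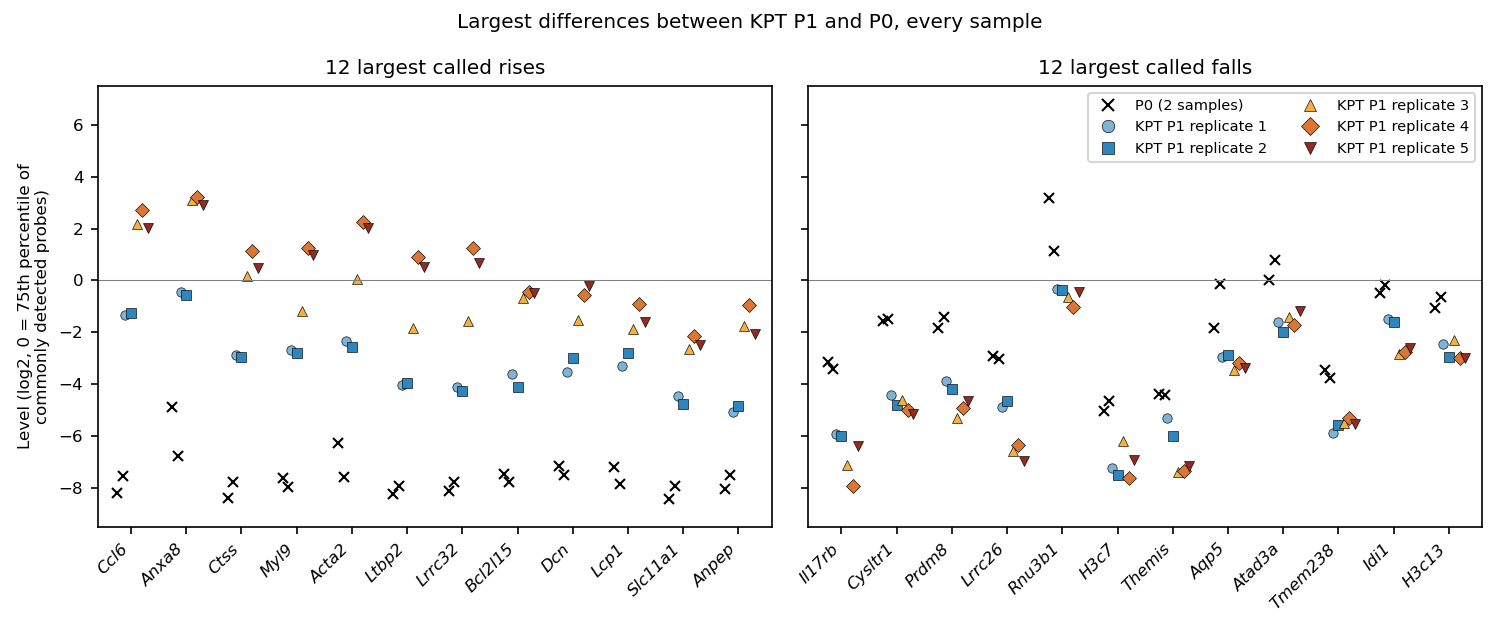
Levels (log2, 0 is the 75th percentile of commonly detected probes) of the 12 largest called rises and the 12 largest called falls, with 1 point per sample, crosses for the 2 P0 samples and coloured symbols for the 5 KPT P1 samples. In each of the 12 rises KPT P1 replicates 1 and 2 are the 2 lowest KPT P1 samples. All genes shown were chosen for groups that do not overlap, so these replicates lie above P0. In falls such as Tmem238 and H3c13 the 5 KPT P1 samples lie close together.

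Among the 26 gene lists, which leave out the cell type markers, acute-phase genes had the largest share of called members (61.5%). Of all tested genes 6.13% were called, and the counts of each list below are to be read against that share. Of 13 tested acute-phase members, 8 rose and 0 fell, with a median change of 2.24 against 0.10 over all tested genes. List medians here and below are fitted values. Members not above background in P0 were tested only through their KPT P1 signal and had little room to fall. Their fitted size rests on dim P0 signals. With such members at the smallest fold that the background allows, the acute-phase median is 1.74, against 0.03 over all tested genes. Saa3, serum amyloid A3, lay at -2.76 and -2.62 in P0 and at -0.04, -0.05, 1.09, 1.14 and 1.66 in KPT P1. All 5 KPT P1 samples were above both P0 samples, and the change was 3.44 ± 0.80 (SE, adjusted p = 0.00755). Lcn2, the iron-siderophore carrier lipocalin 2, lay at 2.09 and 0.72 in P0 and at 3.12, 3.31, 4.51, 4.05 and 3.90 in KPT P1, a rise of 2.37 ± 0.50.

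Saa1 rose by 2.73 ± 0.55 and Saa2 at least 1.23-fold. The orosomucoids Orm1, Orm2 and Orm3, plasma proteins that bind lipophilic molecules, rose by 2.24, 2.15 and 1.63. Saa1 with Saa2, and the 3 orosomucoids, are near-identical copies, so their probes may not tell the copies apart. Serpina3n, an inhibitor of serine proteases, lay at -6.17 and -7.76 in P0 and at -3.63, -3.84, -4.26, -4.91 and -4.34 in KPT P1. It rose at least 3.34-fold and, unlike the largest rises, was highest in replicates 1 and 2. It was 1 of the list's members called with replicates 3, 4 and 5 left out, where 1 of 13 was called, against 9 of 13 with replicates 1 and 2 left out. The acute-phase members not called include Lrg1, with a change of 1.12 and an adjusted p of 0.0185.

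Of 15 tested genes of the IL-6 family and STAT3 feedback, 4 rose and 0 fell. Stat3 itself lay at -1.62 and -1.67 in P0 and at -0.50, -0.47, -0.56, -0.20 and 0.08 in KPT P1, a rise of 1.31 ± 0.27 (adjusted p = 0.00314). Socs3, the feedback inhibitor that STAT3 induces, lay at -2.90 and -2.48 in P0 and at -0.998, -0.86, 1.04, 1.38 and 0.997 in KPT P1, a rise of 3.00 ± 0.70. Bcl3, an IkappaB-family regulator, rose by 2.29 and Pim1, a survival kinase, by 1.74. The list's median was 1.17, and 2 members had lower values in KPT P1 at an unadjusted p under 0.05. The cytokine Il6 lay at -8.20 and -7.84 in P0 and at -7.32, -7.44, -3.54, -0.79 and 0.19 in KPT P1 (adjusted p = 0.181). Il6 was above background only in replicates 3, 4 and 5, and with those samples left out 0 of the 15 members was called.

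Promoters of the acute-phase and STAT3 genes and of smooth muscle genes were searched for motifs, and those of Socs3 and Myl9 are printed in part. Among 11 called acute-phase and STAT3 genes with a RefSeq promoter (300 bases around the gene start, assembly GRCm38.p6), 1 held the STAT motif TTCNNNGAA, against 8.3% of 32851 promoters, and 1 held a kappaB motif, against 8.46%. The kappaB match was in Bcl3. The STAT motif, read on both strands, was in Socs3. Among 7 smooth muscle genes with a promoter, Myl9 held a CArG box, the site of serum response factor, which 1.63% of promoters held. The 250 bases before the gene start are printed for Socs3 (chr11:117969367-117969616, minus strand) and Myl9 (chr2:156775214-156775463, plus strand), 5′ to 3′ on the strand of the gene, with the motif in capitals. The motif begins 154 bases before the start in Socs3 and 161 in Myl9.
Socs3: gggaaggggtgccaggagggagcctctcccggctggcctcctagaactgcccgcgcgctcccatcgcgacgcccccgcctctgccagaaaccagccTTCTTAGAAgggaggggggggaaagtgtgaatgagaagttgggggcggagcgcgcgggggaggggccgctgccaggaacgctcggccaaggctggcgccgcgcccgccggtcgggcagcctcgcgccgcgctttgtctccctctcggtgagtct
Myl9: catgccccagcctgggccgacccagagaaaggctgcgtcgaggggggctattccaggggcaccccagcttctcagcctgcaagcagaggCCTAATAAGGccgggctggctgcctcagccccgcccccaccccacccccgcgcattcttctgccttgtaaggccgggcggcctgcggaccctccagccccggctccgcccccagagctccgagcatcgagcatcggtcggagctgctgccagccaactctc
A match says only that these letters are present.

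Genes of low oxygen and glucose use rose in part. Of 22 tested members, 5 rose and 0 fell, with a median of 0.70. Slc2a3, a glucose transporter, lay at -3.60 and -3.83 in P0 and at -1.15, -1.20, -0.49, -0.73 and -0.93 in KPT P1. The groups did not overlap, and the rise of 2.82 ± 0.26 (SE, adjusted p = 2.1e-06) was still called with either set of replicates left out. Car9, a carbonic anhydrase that HIF induces, was not above background in P0 and lay at -4.58, -4.54, -3.11, -3.49 and -2.86 in KPT P1, a rise of at least 4.72-fold. Hk2, hexokinase 2, rose by 1.53, Pfkfb4, a regulator of glycolytic flux, by 2.05, and Slc2a1, the ubiquitous glucose transporter, by 0.91. The angiogenic factor Vegfa had a change of 0.80 that was not called (adjusted p = 0.1475), and its levels overlapped between the groups.

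Several chemokines and myeloid growth factors rose. Of 20 tested chemokines 4 rose and 0 fell (median 2.21), and with replicates 1 and 2 left out 8 rose. Apart from Ccl6, these were Ccl8, Cxcl16 and Cx3cl1. Ccl8, a monocyte attractant, lay at -4.91 and -4.71 in P0 and at -2.85, -2.76, -2.15, -2.23 and -2.21 in KPT P1, a rise of 2.37 ± 0.43. Cxcl16, a membrane-bound ligand for lymphocytes, lay at -4.76 and -4.69 in P0 and at -3.98, -3.95, -1.51, -1.50 and -1.54 in KPT P1. Its rise of 2.23 fell to 0.77 with replicates 3, 4 and 5 left out and was then not called.

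Csf1, the growth factor of macrophages, lay at -0.16 and 0.32 in P0 and at 1.03, 1.30, 1.01, 1.74 and 1.37 in KPT P1. It rose by 1.21 ± 0.23 (adjusted p = 0.00171) to a similar level in all 5 samples. Il18, an inflammasome-activated cytokine, rose at least 2.56-fold and Tnfsf13b, the B cell survival factor BAFF, at least 1.1-fold, and Tnfsf13b changed sign where dim signals were floored. These were the 3 called of 16 myeloid growth factors and cytokines tested, with 0 lower. The complement component C4b was not above background in P0 and rose at least 3.72-fold.

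Cd74, the invariant chain of MHC class II, lay at -2.09 and -2.58 in P0 and at -1.56, -1.05, -0.74, -0.87 and -1.05 in KPT P1, and rose by 1.28. H2-Oa, a class II accessory chain, rose by 0.84, and these were the 2 called of 5 class II members tested, against 6.13% of all genes. Of 13 class I members, 0 rose and 1 fell (7.69%, near the share of all genes). This was the immunoproteasome subunit Psmb10, which fell by 1.03. B2m lay at 3.84 and 4.09 in P0 and from 3.73 to 4.13 in KPT P1. Of 25 interferon-stimulated genes tested, limma called 0 in either direction, with 5 at an unadjusted p under 0.05 (median -0.23). The ubiquitin-like Isg15 had levels of 1.57 and 1.65 in P0 and from 0.62 to 1.20 in KPT P1 (adjusted p = 0.317).

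Several epithelial genes rose, while the keratins Krt8 and Krt18 were not called. Krt19 lay at -7.01 and -7.98 in P0 and at -5.35, -5.08, -3.17, -1.78 and -2.44 in KPT P1, a rise of at least 5.25-fold. Krt20 rose at least 3.93-fold and Grhl2, a transcription factor of epithelial identity, at least 3.36-fold. With the splicing factor Esrp1 and the claudin Cldn4 (a rise of 1.41), 5 of 14 tested members rose and 0 fell. Krt18 had a change of -0.36 and Krt8 of -0.30, and Cdh1 was above background in 2 of 5 KPT P1 samples and not called. Of 15 mesenchymal genes, limma called 0 in either direction, with 5 at an unadjusted p under 0.05. Vim lay at 2.74 and 2.93 in P0 and at 2.84, 3.05, 3.14, 3.32 and 2.38 in KPT P1, with overlapping groups. Fibronectin, Fn1, had a fitted change of 7.94 and an adjusted p of 0.0126, just above the threshold.

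Of 20 collagens and laminins tested, 1 rose (5.0%, below the 6.13% of all genes), although the median was 2.83. This was Col6a3, which rose at least 5.81-fold. Of the 20 members, 14 were not above background in P0. With these at the smallest fold that the background allows, the median is 1.84. The type I collagen gene Col1a2 lay at -6.49 and -6.56 in P0 and at -2.74, -2.64, -0.06, 2.69 and 2.61 in KPT P1 (adjusted p = 0.0153). With replicates 1 and 2 left out Col1a2 passed the threshold, and 8 of the 20 members did.

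Of 20 proteases, plasminogen activators and inhibitors, 5 rose and 0 fell. Mmp2, the gelatinase of basement membrane, lay at -4.80 and -4.43 in P0 and at -1.24, -1.50, -1.18, -1.22 and -1.12 in KPT P1. This is a rise of 3.36 ± 0.52 (SE, adjusted p = 0.000339) with an SD of 0.15 over the 5 KPT P1 samples, and replicates 1 and 2 were as high as the others. Plau, the urokinase plasminogen activator, lay at -4.66 and -3.67 in P0 and at -2.70, -2.62, -0.98, -0.48 and -0.67 in KPT P1. It rose by 2.68, or by 1.51 without a call when replicates 3, 4 and 5 were left out. Plat, the tissue plasminogen activator, rose by 1.43, Mmp10, stromelysin 2, by 1.55 and Adamts4, an aggrecan-cutting protease, by 2.44. Among growth factors that such enzymes release, Hbegf lay at -4.57 and -3.75 in P0 and at -2.38, -2.33, -1.43, -0.81 and -1.09 in KPT P1, a rise of 2.55 ± 0.37 that was still called with either set left out.

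**Figure D2:**
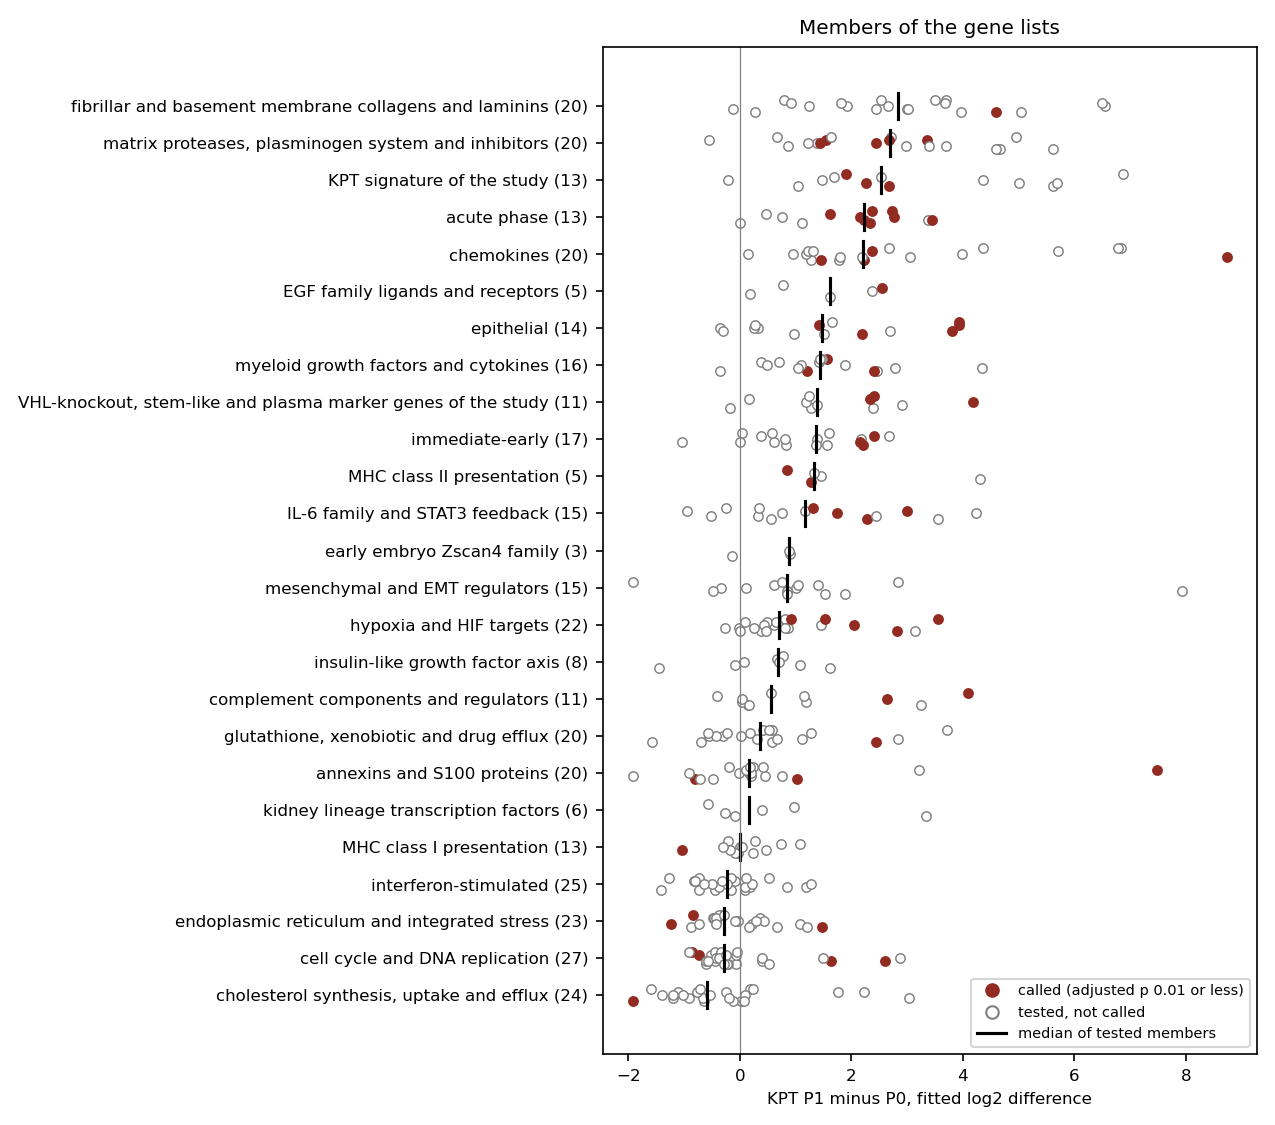
Fitted log2 difference KPT P1 minus P0 for each tested member of 25 gene lists, with filled points for called members, open points for the others and a bar at the list's median; the number tested is in parentheses. The fitted median is highest for collagens and laminins (2.83, 1 of 20 called) and lowest for the cholesterol genes (-0.59, 1 of 24 called). The acute-phase list holds 8 filled points. Of the 20 collagens and laminins, 14 were not above background in P0. With such members at the smallest fold that the background allows, their list's median is 1.84, below 2.02 for the proteases.

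Genes of growth and metabolism moved in both directions. Of 27 cell cycle genes, 2 rose and 2 fell (median -0.28). Ccnd1, cyclin D1, lay at -4.48 and -3.20 in P0 and at -2.08, -1.77, -0.89, -0.47 and -0.99 in KPT P1, a rise of 2.60 ± 0.39, and the cell cycle inhibitor Cdkn1a rose by 1.63. The mitotic cyclin Ccnb1 lay at 0.35 and 0.24 in P0 and at -0.46, -0.27, -0.92, -0.56 and -0.61 in KPT P1, a change of -0.86, and Ccne1, cyclin E1, had a change of -0.74. Ccnd1, Cdkn1a and Ccnb1 lost their calls when replicates 3, 4 and 5 were left out.

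Of 24 genes of cholesterol synthesis, uptake and efflux, 1 was called (4.17%, below the 6.13% of all genes). This was Idi1, an isoprenoid isomerase. It lay at -0.48 and -0.18 in P0 and at -1.49, -1.59, -2.83, -2.76 and -2.60 in KPT P1, a change of -1.93 ± 0.40, or -1.21 and not called with replicates 3, 4 and 5 left out. With replicates 1 and 2 left out, 6 members fell. Of 23 genes of endoplasmic reticulum and integrated stress, Ddit3, the stress factor CHOP, rose by 1.47, while the serine synthesis enzymes Psat1 and Phgdh had changes of -1.23 and -0.85. Ddit3 lay at -1.54 and -1.13 in P0 and at 0.13, -0.29, 0.36, 0.05 and 0.38 in KPT P1. Among immediate-early genes, 3 of 17 rose, Ier3 by 2.41, the AP-1 component Fosl1 by 2.16 and Fosb at least 1.58-fold. The drug efflux pump Abcb1a rose at least 1.35-fold, the only called member of 20 in its list (5.0%, below the 6.13% of all genes).

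**Figure D3:**
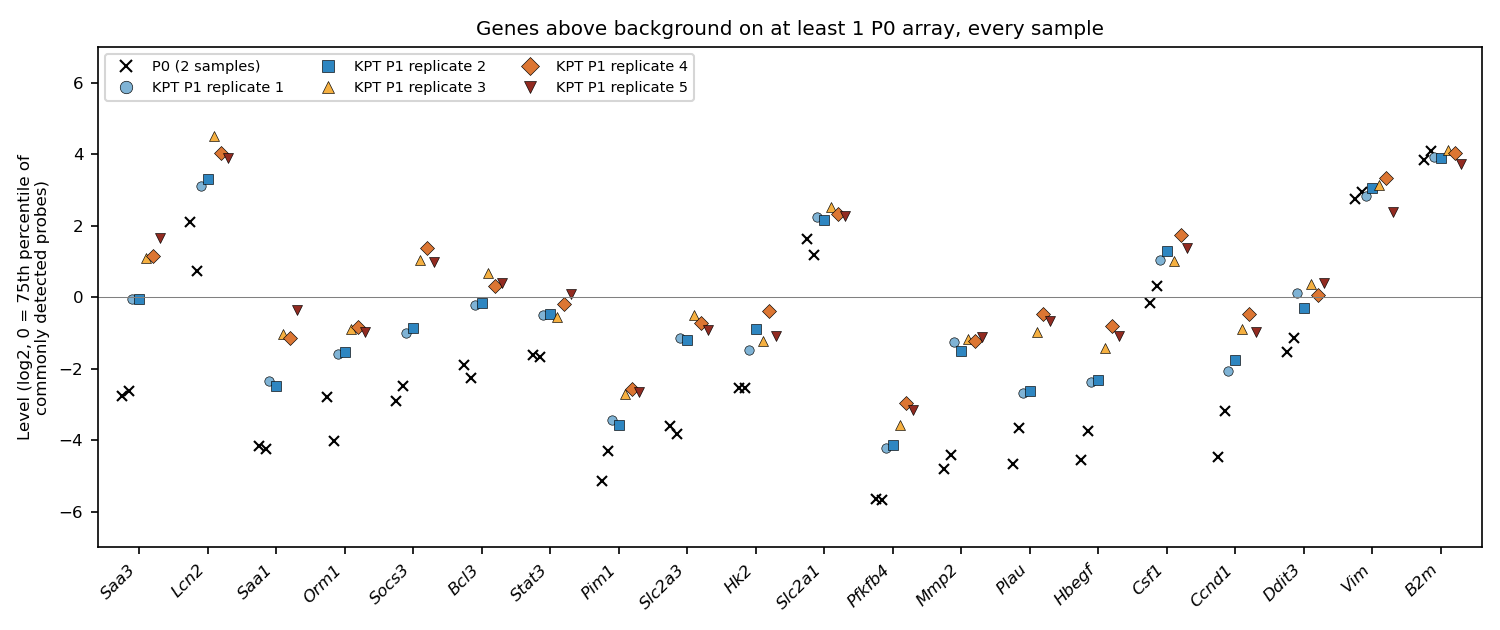
Levels (log2, 0 is the 75th percentile of commonly detected probes) of 20 genes above background on at least 1 P0 array, with crosses for the 2 P0 samples and coloured symbols for the 5 KPT P1 samples. Mmp2 and Slc2a3 form tight clusters above P0, Socs3, Plau and Saa1 spread with replicates 1 and 2 lowest, and Vim and B2m overlap with P0.

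The SD over KPT P1 had a median of 0.22 for the 166 called falls, 0.32 for the 523 called rises and 0.27 for all tested genes. Cysltr1, a leukotriene receptor, lay at -1.55 and -1.47 in P0 and at -4.43, -4.82, -4.63, -4.996 and -5.16 in KPT P1, a change of -3.30 ± 0.50 (SE, adjusted p = 0.000296). Il17rb, a subunit of the IL-25 receptor, had a change of -3.40 and was above background in 3 of 5 KPT P1 samples. Aqp5, a water channel of glands, lay at -1.85 and -0.13 in P0 and from -3.45 to -2.86 in KPT P1, a change of -2.17.

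Rnu3b1, a U3 small nucleolar RNA, lay at 3.17 and 1.12 in P0 and at -0.34, -0.39, -0.65, -1.02 and -0.45 in KPT P1, a change of -2.72. The replication-dependent histone genes H3c7 and H3c13 had changes of -2.26 and -1.89, and near-identical histone copies may share their probes. Prdm8, a transcriptional regulator, had a change of -2.96 and Atad3a, a mitochondrial ATPase, of -1.997. Lrrc26, a potassium channel subunit, and Themis, known from T cell signalling, had changes of -2.92 and -2.25, and both were lowest in replicates 3, 4 and 5. Tmem238 had a change of -1.97 and lay from -5.90 to -5.33 in KPT P1.

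The genes that the study followed over its passages were partly moved already at P1. Of 13 tested members of the study's KPT signature, 3 rose, Plau, Padi3 and Arhgap33, and 0 fell (median 2.52). Of the 13, 9 were not above background in P0. With these at the smallest fold that the background allows, the median is 1.90. The study chose this list from P0 and the passages P2 to P6, and its comparisons leave out P1. The P0 samples are shared with the comparison made here, so the list is not independent evidence of a direction. Padi3, an enzyme that converts arginine to citrulline, lay at -4.65 and -4.30 in P0 and at -2.69, -2.52, -2.64, -2.33 and -2.70 in KPT P1, a rise of 1.90 with an SD of 0.16. Arhgap33, a GTPase regulator, rose at least 1.09-fold, but its change turned to -0.19 where dim signals were floored. Of 11 further marker genes of the study, 3 rose. Ppef1, a phosphatase with calcium-binding motifs, lay at -7.85 and -7.79 in P0 and at -4.83, -4.42, -3.09, -2.56 and -3.31 in KPT P1, a rise of at least 4.97-fold, and the others were Saa2 and Tnfsf13b.

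Summed markers of macrophages, leukocytes in general, fibroblasts and smooth muscle were higher in every KPT P1 sample than in P0, and those of T and NK cells were not. Of 15 marker lists, 7 had every KPT P1 sum above both P0 sums. For 20 macrophage and monocyte markers the sum was 3.14 and 2.53 in P0 and 5.04, 6.50, 6.65, 7.82 and 6.38 in KPT P1. Much of this sum was Cd68, a lysosomal protein that P0 also expressed and that was not called. Without Cd68 the sum was 0.509 and 0.626 in P0 and 0.740, 0.531, 2.87, 4.26 and 3.10 in KPT P1, so that replicate 2 lay between the P0 samples. Between 5 and 6 of the 20 were above background in P0 and between 9 and 13 in KPT P1.

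No macrophage marker was called by limma, although 6 of 12 tested had an unadjusted p under 0.05. Fcer1g and Tyrobp, adaptors of myeloid receptors named here after their values were seen, had fitted changes of 5.38 and 5.24 with adjusted p of 0.035 and 0.0476. Fcer1g lay at -7.81 and -7.42 in P0 and at -4.64, -4.70, -0.58, -0.41 and -0.80 in KPT P1. The resident macrophage markers C1qa, C1qb, C1qc and Cx3cr1, with Cd163, Fcgr1 and Ccr2, were not above background on any of the 7 arrays. Ptprc (CD45) was above background in 1 of 5 KPT P1 samples and the macrophage marker Adgre1 in 3 of 5.

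Of 16 pan-leukocyte markers 2 of 13 tested were called, Rac2 and Was, and the change of Was turned to -0.15 where dim signals were floored. Of 18 fibroblast and pericyte markers 2 of 13 tested were called, Dcn and Pdgfrb, the latter with a rise of at least 2.4-fold. Most of the fibroblast sum in P0 was Fbln1, which was not called. It lay at log2 levels of -0.69 and -0.82 in P0 and from -1.66 to -0.61 in KPT P1. Of 10 smooth muscle markers 2 of 7 tested were called, Acta2 and Myl9. The smooth muscle sum was 1.40 and 1.83 in P0 and 2.33, 2.13, 5.28, 15.1 and 14.4 in KPT P1. Most of this sum in P0 was Smtn, which was not called and lay at log2 levels of 0.30 and 0.71 there. Col1a1 was above background in all 5 KPT P1 samples and in neither P0 sample, with an adjusted p of 0.035 from 4 KPT P1 samples, because the spot of replicate 5 was removed as an outlier.

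Neutrophil, distal tubule and adipocyte sums were also above both P0 sums in every KPT P1 sample. They ran from 3.11 to 4.43 against 2.64 and 2.57 for neutrophils, from 0.138 to 0.157 against 0.0893 and 0.093 for the distal tubule and collecting duct, and from 0.0662 to 0.167 against 0.0447 and 0.0522 for adipocytes. Most of the neutrophil sum was Csf3r, which lay at a log2 level of 1.37 and 1.34 in P0 and from 1.60 to 1.99 in KPT P1. The brightest distal tubule member was Aqp3, at -4.67 and -4.84 in P0 and from -3.63 to -3.31 in KPT P1. Both genes were above background in P0 and neither was called. No neutrophil marker of 3 tested was called by limma, with 2 at an unadjusted p under 0.05, and S100a9 was not above background in either group. The dendritic cell lectin Clec10a, 1 of 3 tested in its list, rose at least 1.41-fold. Of 12 proximal tubule markers 11 were not above background in either group, including the phosphate transporter Slc34a1. The exception, the endocytic receptor Cubn, rose at least 1.93-fold, from -6.66 and -6.73 in P0 to between -5.50 and -4.79 in KPT P1. Sums over T and NK cell markers ran from 0.449 to 0.554 in KPT P1 against 0.531 and 0.573 in P0. For endothelial markers they ran from 0.773 to 1.15 against 1.08 and 1.03, and Pecam1 was above background in 1 of 5 KPT P1 samples. The adipocyte and macrophage lipid carrier Fabp4 rose by 2.35. How much of the change in the cultured explants came from host cells was not tested.

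Of the 130 genes named by rule, 24 were called with KPT P1 replicates 3, 4 and 5 left out, against 74 with all samples. The remaining replicates 1 and 2 still held fibroblast sums above P0. Among genes known from stroma or myeloid cells, Dcn, Lcp1, Slc11a1, Clec10a and Fabp4 (1.94) were still called, and Ccl6, Ctss, Acta2, Myl9 and Rac2 were not. The cell of origin was not tested here for these or for the other named genes. Among the others, Mmp2 (3.24), Slc2a3 (2.54), Hbegf (1.81), Anxa8 (5.33), Car9, Serpina3n, Grhl2, Krt19 and Ppef1 were still called. Saa3 (2.64), Socs3 (1.76), Plau (1.51), Krt20 and Bcl2l15 were not called. KPT P1 replicate 3 shared a slide with P0 replicate 1, and replicate 4 with P0 replicate 2. Within these slides the difference was 3.61 and 3.21 for Mmp2 and 3.10 and 3.10 for Slc2a3.

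**Figure D4:**
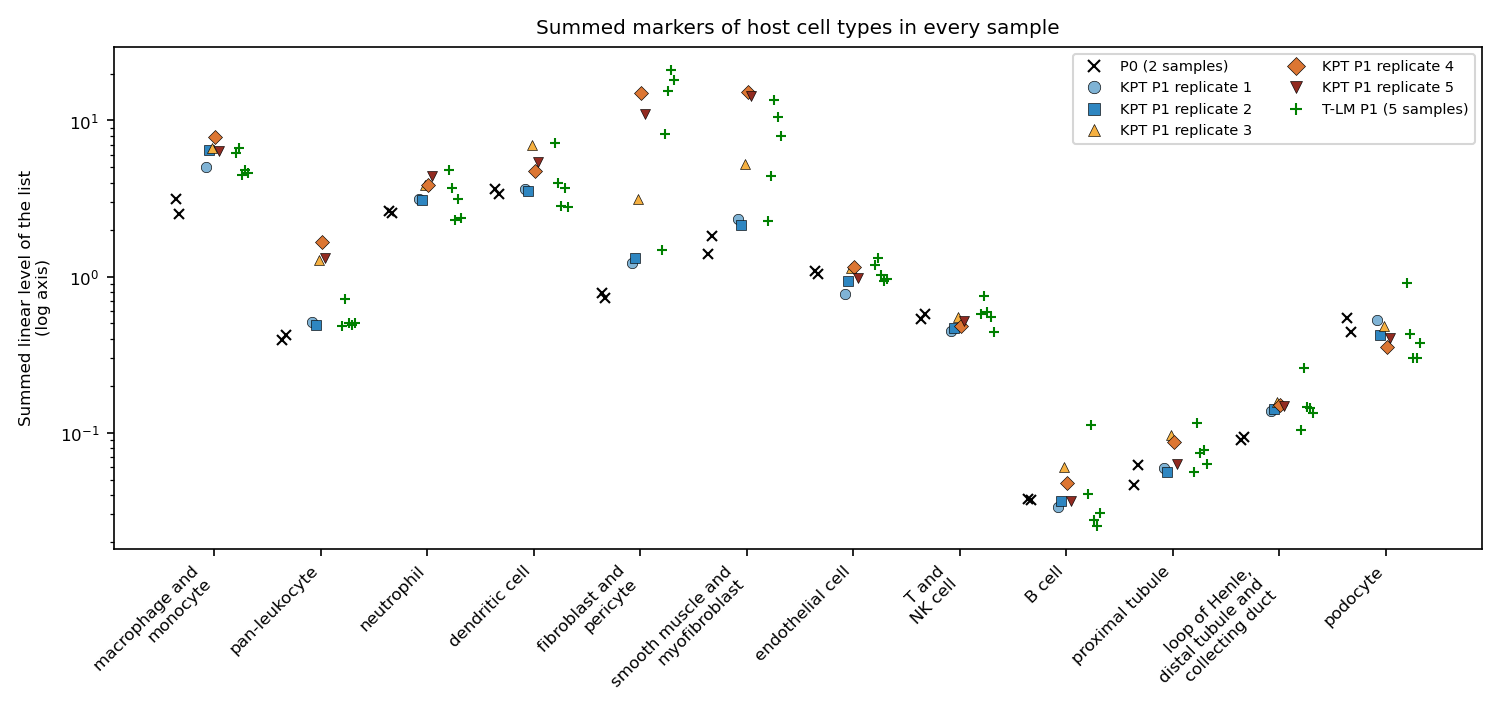
Summed linear level (log axis) of 12 lists of host cell markers in each sample of P0 (crosses), KPT P1 (coloured symbols) and T-LM P1 (plus signs). For fibroblasts KPT P1 runs from 1.23 to 14.9 above P0 at 0.730 and 0.780, whereas the T and NK cell, endothelial and podocyte sums overlap with or lie below P0.

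Cells recovered at the same passage from lung metastases after tail-vein injection (T-LM P1, 5 samples) give a comparison whose difference does not use P0 levels. The title of T-LM P1 replicate 1 names only the passage and LOT1, and its tail route comes from another label field. Its fibroblast sum was 1.49, against 8.14 to 21.1 in the other T-LM P1 samples. With limma, 4 of 23145 probes were called between KPT P1 and T-LM P1 (0.0173%), all lower in KPT P1, and 2444 had an unadjusted p under 0.05. With the replicate number as a block, 1 probe was called, higher in KPT P1. The named genes called were the dipeptidase Dpep1 (-2.41 ± 0.24 SE), 1700018G05Rik and Gm9112, named after their values were seen. Dpep1 was above background in 1 of 5 KPT P1 samples and lay from -7.14 to -5.88 in KPT P1 and from -4.48 to -3.67 in T-LM P1. Leaving out T-LM P1 replicate 1 gave 32 calls, and leaving out KPT P1 replicate 1 or 2, or T-LM P1 replicate 3, 4 or 5, gave 0, with between 1881 and 2472 probes at an unadjusted p under 0.05. These counts do not show that the groups are alike.

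None of the 127 named genes tested there was called, and the lowest adjusted p among them was 0.0758, for Tnfsf13b. Of the 689 genes called between P0 and KPT P1, 0 were called between KPT P1 and T-LM P1. Ccl6 averaged 0.87 ± 1.98 (SD, n = 5) in KPT P1 and -3.58 ± 2.93 (SD, n = 5) in T-LM P1 (limma adjusted p = 0.294). Mmp2 averaged -1.25 ± 0.15 and -1.12 ± 0.43, and the difference of -0.13 had an SE of 0.20. The fibroblast sum had a median of 3.16 in KPT P1 and 15.3 in T-LM P1, the pan-leukocyte sum of 1.28 and 0.501, with ranges that overlap in both.

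Along the kidney route, several genes high at P1 were lower at P2. The means below are given side by side without a test, since all passages share the P0 samples. Ccl6 averaged -7.88 in P0, 0.87 in KPT P1, -7.56 in KPT P2 (2 samples) and -4.34 in KPT P6 (5 samples). Acta2 averaged -6.94, -0.13, -4.77 and -0.24 in the same groups, and Saa3 -2.69, 0.76, -2.06 and -3.96. Mmp2, so even at P1, lay at -4.15 and -2.69 in KPT P2 and from -2.25 to -1.48 in KPT P6. The fibroblast sum was 0.968 and 0.971 in KPT P2 and from 1.20 to 2.28 in KPT P6. Most of the KPT P2 sums was Dcn, at log2 levels of -0.83 and -2.05, with Fbln1, at -2.12 and -1.10. These sums are therefore not a level of fibroblast markers in general. The passages between P2 and P6 were uneven. In KPT P5 the fibroblast sum was 38.5 and 12.05 in replicates 1 and 2 and from 1.26 to 1.40 in the other 3, and Ccl6 lay at 3.56 and 3.47 in the same replicates 1 and 2, above every KPT P1 sample. Acta2 lay there at 4.17 and 2.72.

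Other genes stayed high after P1. Anxa8 averaged -5.83, 1.65, 1.66 and 2.66 in P0, KPT P1, P2 and P6. Dcn averaged -7.33, -1.77, -1.44 and -2.03, and Lcp1 -7.52, -2.10, -3.06 and -0.46. Car9 averaged -7.28, -3.72, -3.56 and -4.04, Ddit3 -1.34, 0.13, 0.48 and 0.36, and Cysltr1 -1.51, -4.81, -2.81 and -2.36. Dcn, Car9 and Ddit3 thus had P2 and P6 means close to that of P1, and Cysltr1 lay between P0 and P1.

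**Figure D5:**
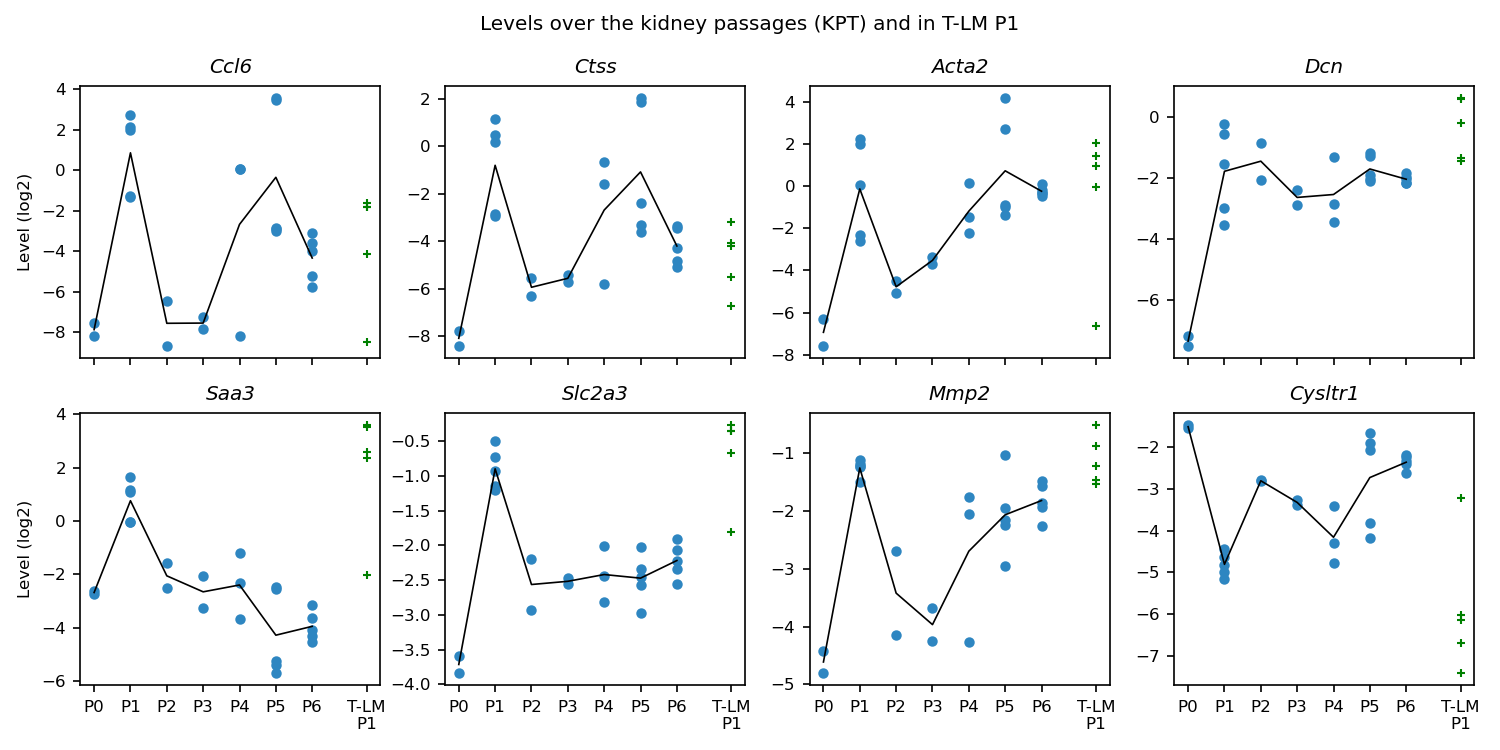
Levels (log2) of 8 genes over the kidney passages P0 to P6 (1 point per sample, line through the means) and in T-LM P1 (plus signs). Ccl6, Ctss, Acta2, Saa3, Slc2a3 and Mmp2 drop between KPT P1 and KPT P2, and Dcn does not. Among the kidney passages the mean of Cysltr1 is lowest at P1. In T-LM P1 Cysltr1 lies at -3.22, -6.01, -7.40, -6.15 and -6.69, mostly below KPT P1.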

How the data were processed

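RNA was labelled with Cy5 and hybridised by the authors to 1-colour Agilent arrays. The deposited scanner files hold the intensity of each spot, background-subtracted and detrended by the scanner software (11.0.1.1 for these arrays), with 0/1 background and outlier flags as other columns. The deposited series values are log2 signals that match quantile-normalized raw medians to within 0.107, and served as an alternative. Control spots were removed, and 59305 spots were averaged into 55681 probes, of which 28020 were named through RefSeq accessions. Precision is limited by how few arrays there are.

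Probes above background on at least 2 of the 7 arrays were tested with limma 3.58.1 in R 4.3.3 (2-sided moderated test, Benjamini-Hochberg) in a fit of 24 arrays (P0 and KPT P1 to P6), which share 1 estimate of the spread. The scripts were tested on simulated data. Each gene is shown by its brightest probe, and 0 named genes had another probe called in the opposite direction. Genes named were the 12 largest non-overlapping rises and falls without predicted transcripts, up to 3 called members per list (the 2 brightest where fewer than 2 were called), the 2 brightest and up to 4 called members per marker list, and 11 genes whatever their values; Dpep1, Fcer1g, Tyrobp, Fn1, Il6, Vegfa, Lrg1, Krt8, Krt18, Adgre1 and the further called list members were added after their values were seen. The members and lists were chosen with earlier results of these data known. Some results are not reported here. Alternatives covered the scaling, background correction, filter, slide, RNA index, repeat arrays, fit and each replicate.

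The numbers of KPT P1 and T-LM P1 replicates were checked for pairing. Deviations of same-numbered samples correlated at 0.61, 0.20, 0.18, 0.43 and 0.35, all over 0.1, although no label gives a shared animal. Some pairs with unlike numbers correlated more closely. KPT P1 replicate 2 with T-LM P1 replicate 1 gave 0.51, and KPT P1 replicate 5 with T-LM P1 replicate 4 gave 0.40. KPT P1 replicate 4 with T-LM P1 replicate 1 gave -0.68. Same numbers were thus not always the closest match, and these values do not show a pairing. With the replicate number as a block, 1 probe was called between these groups, higher in KPT P1.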

Additional observations from a re-analysis of the deposited data

Results flagged for a closer look

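Of 145 values examined over the KPT P1 samples, 3 had a sample far from the others, and chance marks about 1 in 20. H2-T23, a class I gene, lay at 3.86 in replicate 3 against 3.31 to 3.40 in the others, so its gap was 0.825 of the range. Srxn1, an antioxidant enzyme with 4 measured samples, lay at 2.42 in replicate 2 against 1.28 to 1.38 (0.913). For the summed erythroid markers, the gap of 1 sample was 0.727 of the range. Their causes were not tested.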

How the results depend on the processing

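The count of 1026 probes called between P0 and KPT P1 moved by more than 1.5 times under several settings. It was 108 with only these 7 arrays in the fit, 427 with the RNA index as a covariate, 519 with a floor on dim probes, 356 with no filter, 664 with probes above background on all 7 arrays, 597 with slide as a fixed term and 491 with the replicate block. It was 290 without KPT P1 replicates 3, 4 and 5, and from 160 to 1181 with 1 replicate left out. P0 and KPT P1 share only replicate numbers: the deviations of same-numbered samples correlated at 0.005 and -0.092. Other scalings, a slide as a random block, repeat P0 arrays and all routes in the fit gave from 883 to 1394.

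Of the 130 named genes 74 were called. This was 9 with only the 7 arrays, 37 with the RNA index, 38 with the floor, 24 without replicates 3, 4 and 5, 45 with no filter, 40 with the replicate block, 36 with the filter on all 7 arrays, and from 20 to 75 with 1 replicate left out. With the floor, Was changed sign to -0.15, Tnfsf13b to -0.0675 and Arhgap33 to -0.19. The cause was not tested.

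The 4 calls between KPT P1 and T-LM P1 became 2 with the percentile over all probes, with the deposited series values and with the stricter filter, 1 with quantile normalization and 1 with the replicate block. Limma called 0 with these 2 groups alone, with no filter and with slide as a fixed term, where 2195, 2334 and 488 probes had an unadjusted p under 0.05, and from 0 to 32 with 1 replicate left out. Signals near background limit the size of the rises of genes that P0 did not show.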
